A study of Mus musculus with 22 samples.

Results

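The 8 mouse SMAD genes and the interval that holds Smad3 and Smad6 were followed through RNA-seq of E14.5 fetal liver and whole genome bisulphite sequencing (WGBS) of whole embryos at E10.5 and of livers at E14.5 and E18.5. The members are Smad1, Smad2, Smad3, Smad4, Smad5, Smad6, Smad7 and Smad9, taken by name, 8 of the 37991 genes listed in the RNA-seq counts. Around each gene, methylation was measured from 1 kb before to 1 kb after the annotated 5′ end (the start-site window) and over the rest of the gene (the gene body). The interval is the 385 kb of chr9:63490001-63875000 (NCBIM37, mm9), cut into 385 tiles of 1 kb. It was chosen on the methylation of the E14.5 livers, which was known to differ between genotypes between Smad3 and Smad6, so the E14.5 values there, of Smad3 and Smad6 included, are a description, and where E14.5 calls are counted nothing is read from them.

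SMAD proteins carry signals of the TGF-β superfamily from receptors at the cell surface to the nucleus. Receptors phosphorylate the receptor-regulated SMADs, Smad2 and Smad3 in the activin and TGF-β branch and Smad1, Smad5 and Smad9 in the BMP branch. These bind the common partner Smad4 and act with other factors on target genes, while the inhibitory Smad6 and Smad7 dampen the signal. In fetal liver these pathways are known for their part in hepatoblast differentiation, blood formation and iron regulation.

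All mice were of the FVB strain (Line3 FVB/NJ per the study's methods), and per those methods all were homozygous for the multi-copy GFP transgene of Line3, so that the controls carry it too. Mutants were MommeD28/MommeD28, homozygous for a null allele of Rlf from an ENU screen, and controls were wild type. Rlf encodes a zinc finger protein and was mutated in every cell, and the material was whole embryo or whole liver, a mixture of cell types. Each WGBS group held 2 libraries and each RNA-seq group 3. The labels give every E10.5 embryo as male and every E18.5 liver as female. In the E14.5 WGBS groups replicate 1 was male and replicate 2 female, and in the RNA-seq groups replicates 1 and 2 were male and replicate 3 female. Tissue, stage and sex therefore cannot be told apart between E10.5 embryos and E18.5 livers, nor tissue and stage between E10.5 embryos and E14.5 livers, and the share of each sex differs between every pair of datasets. The H3K4me1 libraries were not analysed here.

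WGBS depth was 16.8 to 19.0 reads per covered CpG in the E10.5 embryos, 31.4 to 35.4 in the E14.5 livers and 17.6 to 18.3 in the E18.5 livers, and RNA-seq libraries held 12928313 to 14621004 counts. The E14.5 libraries were the deepest, so their values have the least counting error. The genome-wide percent of methylated reads was 70.7 and 72.0 in wild-type and 73.3 and 74.0 in mutant E10.5 embryos, 56.4 and 58.5 against 60.3 and 59.2 in E14.5 livers, and 61.4 and 61.7 against 65.5 and 61.4 in E18.5 livers. Mutant replicate 1 thus stood apart among the E18.5 livers. The E18.5 differences of the whole stretch, its surroundings, the called tiles, the median interval tile and the median gene body are also given without it. Most other E18.5 values include it. The median tile of the genome was 1.13, 1.74 and 2.01 points higher in mutants in E10.5, E14.5 and E18.5 tissue, and differences in the interval are to be read against that shift.

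One stretch of the interval stood out in the E14.5 livers. It was found as a run of more than 10 CpGs, with gaps of at most 300 bp, over which the mean genotype difference of 5 neighbouring CpGs stayed above 15 points. The interval held 4162 CpGs covered by 6 or more reads in each of the 12 libraries, and there was 1 such run with higher methylation in mutants and 0 with lower. It spans chr9:63727499-63729011, 1513 bp with 36 measured CpGs, and is intergenic: its nearer edges lie 121698 bp upstream of the start of Smad3 and 71942 bp beyond the 3′ end of Smad6. Both genes lie on the minus strand, Smad3 at chr9:63494574-63605801 and Smad6 at chr9:63800953-63869866. The reference holds 42 CpGs over the stretch, against a median of 11 for windows of that length along chromosome 9 and 18 within the interval. Its G+C content was 46.9%, and the observed over expected CpG ratio was 0.509.

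The 300 bases of the stretch that hold the most CpGs are printed because the genotype difference was measured there, with the promoters of both flanking genes for contrast (300 bases each, ending 50 bases after the annotated start). The sequences are the NCBIM37 reference in the direction of the plus strand for the stretch (chr9:63728387-63728686) and of the minus strand for the promoters of Smad3 (chr9:63605751-63606050) and Smad6 (chr9:63869816-63870115). Capitals mark CpGs and, in the Smad6 promoter, the palindrome GTCTAGAC.
Intergenic stretch: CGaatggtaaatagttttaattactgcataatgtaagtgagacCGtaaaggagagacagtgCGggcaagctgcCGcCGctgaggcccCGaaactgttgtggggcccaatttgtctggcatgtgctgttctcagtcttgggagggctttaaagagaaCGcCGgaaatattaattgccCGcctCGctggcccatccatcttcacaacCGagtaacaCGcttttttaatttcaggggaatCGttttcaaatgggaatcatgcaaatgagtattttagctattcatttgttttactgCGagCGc
Smad3 promoter: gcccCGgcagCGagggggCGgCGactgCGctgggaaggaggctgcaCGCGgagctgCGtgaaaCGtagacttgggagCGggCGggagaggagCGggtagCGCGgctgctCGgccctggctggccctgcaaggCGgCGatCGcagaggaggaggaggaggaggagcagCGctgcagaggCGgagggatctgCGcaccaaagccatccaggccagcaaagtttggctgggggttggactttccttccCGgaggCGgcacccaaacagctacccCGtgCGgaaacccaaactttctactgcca
Smad6 promoter: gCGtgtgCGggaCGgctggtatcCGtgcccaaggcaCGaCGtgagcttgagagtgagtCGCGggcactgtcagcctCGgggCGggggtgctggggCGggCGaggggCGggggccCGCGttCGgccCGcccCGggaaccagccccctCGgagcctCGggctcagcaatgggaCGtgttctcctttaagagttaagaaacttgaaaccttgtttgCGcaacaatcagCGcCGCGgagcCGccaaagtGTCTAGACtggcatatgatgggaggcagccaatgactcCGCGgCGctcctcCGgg

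All 15 CpGs of the printed part of the stretch were measured. Averaged over them, methylation was 22.3% in wild-type and 53.9% in mutant E14.5 livers, 31.3% and 61.4% in E10.5 embryos, and 29.98% and 60.2% in E18.5 livers. The mutant mean was the higher at 15 of the 15 in each tissue, which in E14.5 livers follows largely from the choice of the stretch. By contrast, the Smad3 promoter had at most 0.393% methylated reads in any library and the Smad6 promoter at most 0.555%. The flanking promoters were thus near 0% in both genotypes while the CpGs of the stretch were partly methylated.

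As a description, letter strings linked to SMAD binding were searched on both strands. They were the palindrome GTCTAGAC, the short string CAGAC, and a G+C-rich string spelled GGCGCC. In the Smad6 promoter GTCTAGAC stood in the bases just around the annotated start. Of 32851 RefSeq promoters (GRCm38.p6) of the same length 0.213% held it, 49.6% held the short string and 11.9% the G+C-rich one. CAGAC occurred 7 times in the stretch, a number that 7.999% of chromosome 9 windows of the same length reached. GTCTAGAC and GGCGCC occurred 0 times in the stretch, and 1.26% and 4.05% of those windows held them. RefSeq promoters of 5 of the 8 members were matched (Smad1, Smad3, Smad5, Smad6 and Smad9). The short string was in 1 of these genes (Smad5), the palindrome in 1 (Smad6) and the G+C-rich string in 2 (Smad5 and Smad9). These matches are letters in a window and say nothing on binding.

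Over the whole stretch, wild-type E14.5 livers had 26.1% and 25.9% methylated reads and mutant livers 56.2% and 53.2%. Both mutants lay far above both wild types, by 28.8 points between the means (26.0% ± 0.122 against 54.7% ± 2.14; SD, n = 2), and these are the values that chose the stretch. The E10.5 embryos and E18.5 livers had no part in that choice. In E10.5 embryos the percentages were 25.4 and 39.3 in wild type and 65.5 and 59.0 in mutants. The groups did not overlap, although the wild-type embryos differed from each other by more than any other pair, and the means were 29.9 points apart (p = 0.333 by a two-sided exact permutation test, which 2 against 2 libraries cannot go below).

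In E18.5 livers methylation was 35.6% and 36.8% in wild type and 64.3% and 55.3% in mutants. The groups again did not overlap, and the means were 23.6 points apart (p = 0.333 by the same exact test). Without mutant replicate 1, the library with the high genome-wide level, it was 19.1 points. Permuted within tissue over both datasets together, the mean difference of 26.7 points had an exact two-sided p of 0.0556, which is again the smallest the design allows and cannot fall below 0.05.

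**Figure D1:**
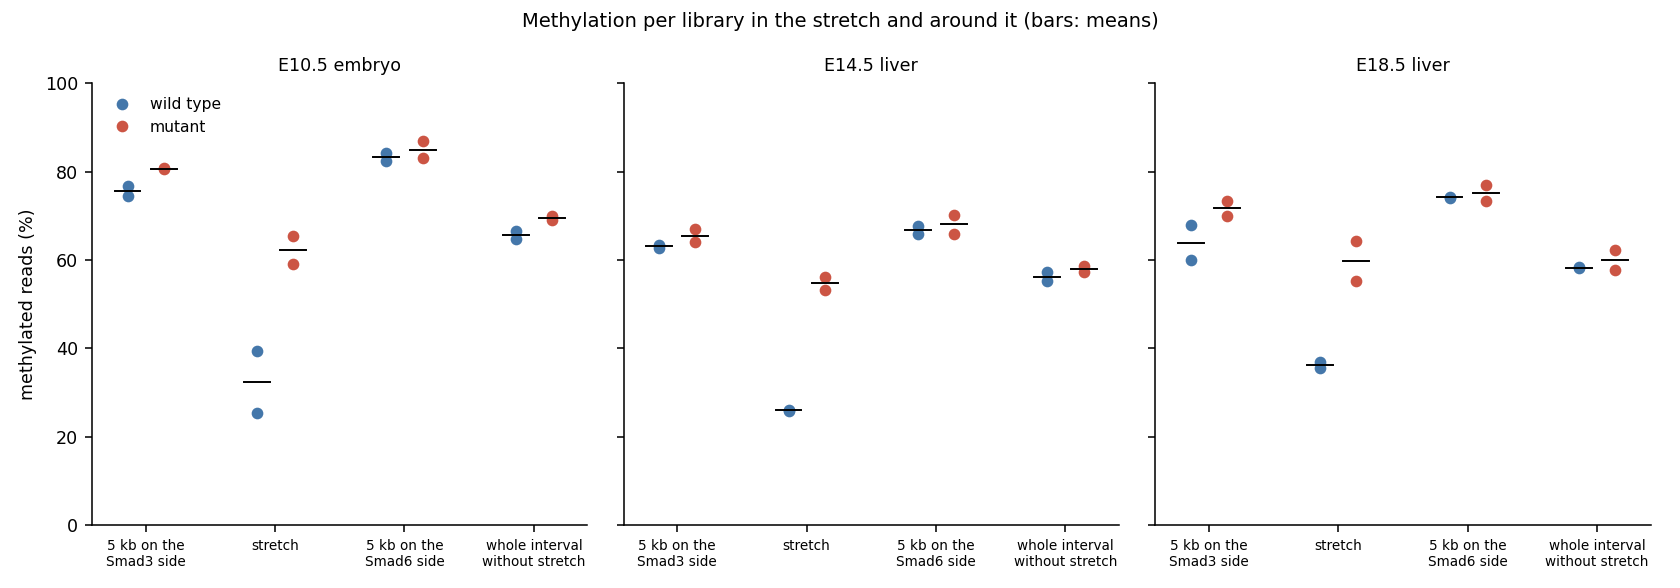
Percent of methylated reads per library (vertical axis) in the stretch, in the 5 kb to either side and in the rest of the interval, with 1 panel per tissue; points are libraries and bars group means of 2. Mutants were 23.6 to 29.9 points above wild types in the stretch, while the differences in the other regions were between 0.935 and 7.80 points.

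Around the stretch the differences were smaller. In the 5 kb toward Smad3 (69 CpGs) mutants were 5.06, 2.45 and 7.80 points higher in E10.5, E14.5 and E18.5 tissue, and in the 5 kb toward Smad6 (55 CpGs) 1.65, 1.34 and 0.935 points higher. In the 1 kb next to the stretch they were larger than over the 5 kb, except toward Smad3 at E18.5, at 9.62, 3.74 and 4.30 points toward Smad3 (7 CpGs) and 8.50, 8.45 and 3.87 points toward Smad6 (14 CpGs). On the side of Smad6 both mutants lay above both wild types in each tissue, and on the side of Smad3 the groups overlapped in each. Over the other 4126 CpGs of the interval the differences were 3.83, 1.65 and 1.75 points. Without mutant replicate 1 the E18.5 differences were 6.16 points in the 5 kb toward Smad3, −0.79 in the 5 kb toward Smad6 and −0.50 in the rest (an alternative chosen after seeing the data). In the 1 kb next to the stretch they were −3.81 toward Smad3 and 4.40 toward Smad6. Wild-type methylation inside was also well below that of the rest of the interval, 32.4% against 65.7% in E10.5 embryos, 26.0% against 56.2% in E14.5 livers and 36.2% against 58.2% in E18.5 livers. In mutants the stretch reached 62.2%, 54.7% and 59.8%, beside 69.5%, 57.9% and 59.999% in the rest. The E14.5 levels follow in part from the rule, which chose the stretch for a genotype difference in those livers. The rest of the interval was not matched to the stretch for CpG density.

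The stretch was not even within itself. The 4 CpGs at 63728096 to 63728131 were the least methylated in wild-type E10.5 embryos, at 0%, and had 22.2% to 43.6% in the mutants. Reads were few there, from 6 per library. The largest differences were 41.5 points at 63728775 in E14.5 livers (18.7% to 60.3%), 50.7 points at 63729010 in E10.5 embryos (45.2% to 95.8%) and 49.2 points at 63728448 in E18.5 livers (16.7% to 65.9%). The mutant mean was the higher at 36 of 36 CpGs in E10.5 embryos and at 35 of 36 in E18.5 livers. In E14.5 livers it was the higher at 36 of 36, which follows largely from the rule that chose the stretch there. Neighbouring CpGs were read in the same libraries and are not separate evidence. Both mutants lay above both wild types at 31, 36 and 30 of the CpGs in E10.5, E14.5 and E18.5 tissue. In the whole interval this held for 130, 96 and 100 of the 363 tiles with 3 CpGs or more. Tiles pool several CpGs, so they are no matched background. The share of single CpGs so separated outside the stretch was not counted. The CpG with the lower mutant mean was at 63728115, with 11.1% in wild-type and 8.82% in mutant E18.5 livers.

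The edges follow from the rule. The running mean was 18.7 points at the first CpG inside and 13.8 points at the CpG just before it, 3 bp away. After the last CpG inside, at 29.1 points, the next measured CpG lay 383 bp off, past the largest gap allowed, and its running mean was 27.7 points.

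**Figure D2:**
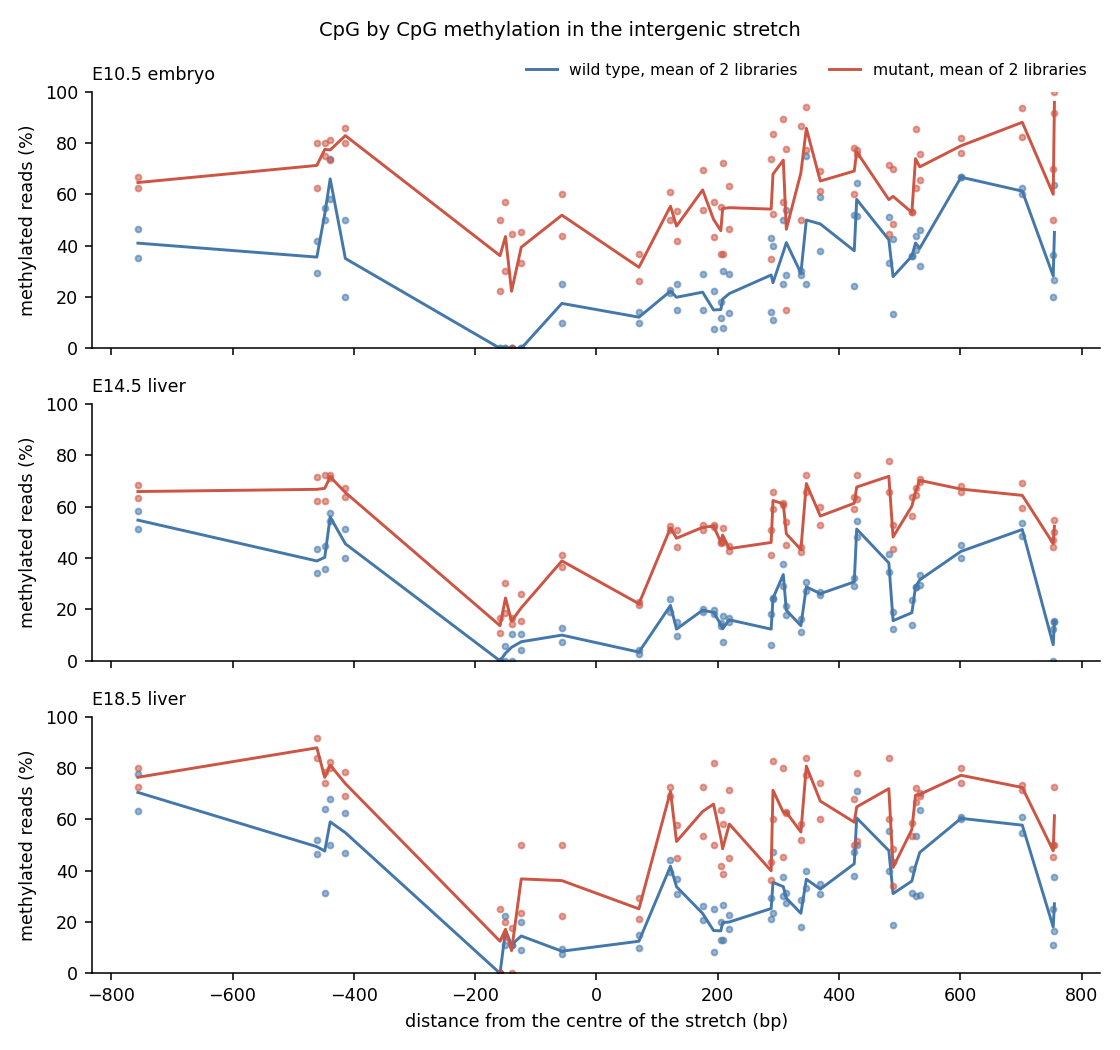
Percent of methylated reads (vertical axis) at each of the 36 CpGs of the stretch against distance from its centre in bp; points are libraries and lines group means. The mutant line lies above the wild-type line at 36 CpGs in E10.5 and E14.5 tissue and 35 in E18.5, and both dip together left of the centre. In E14.5 tissue the count follows largely from the choice of the stretch.

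Genotypes were next compared over all tiles of the genome with at least 8 CpGs, by edgeR's quasi-likelihood test on methylated and unmethylated counts, with a tile called where genotypes differed by more than 15 points with an adjusted p under 0.05. Of the 385 interval tiles 251 could be tested. In E10.5 embryos 1 was called (0.398%), with higher methylation in mutants, beside 0.374% of the 581510 tiles of the genome (0.371% higher, 0.00241% lower). In E18.5 livers 2 were called (0.797%), both higher, beside 0.154% (0.15% higher, 0.00327% lower). In E14.5 livers, which chose the interval, 1 was called, beside 0.176% of the genome (0.171% higher, 0.00499% lower). No interval tile was called lower in E10.5 embryos or E18.5 livers.

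One tile, chr9:63728001-63729000, was called in both E10.5 embryos and E18.5 livers and holds 29 measured CpGs of the stretch. It is also the tile counted in E14.5 livers, from which nothing is read because those livers chose the interval. Its methylation was 23.8% and 37.6% in wild-type and 64.1% and 56.4% in mutant E10.5 embryos, a difference of 29.6 points (edgeR adjusted p = 8.6e-06). In E18.5 livers it was 34.2% and 32.7% against 61.9% and 53.3%, a difference of 24.1 points (adjusted p = 7.3e-05). The E14.5 livers had 23.7% and 23.8% against 54.7% and 51.8%. With 1 E10.5 library left out in turn the call was kept, with adjusted p at most 0.0017. The E18.5 call was lost without wild-type replicate 1 (24.9 points, adjusted p = 0.12) or without wild-type replicate 2 (23.4 points, adjusted p = 0.27) and was kept without mutant replicate 1 (19.8 points, adjusted p = 0.0017). With 1 wild-type library left, its spread is assumed to be that of the other group.

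The other E18.5 tile, chr9:63684001-63685000 (12 CpGs, intergenic), lies 43.8 kb from the centre of the stretch on the side of Smad3. It had 39.8% and 40.5% in wild-type and 58.1% and 62.7% in mutant E18.5 livers, a difference of 20.2 points (edgeR adjusted p = 0.031). Without either wild-type replicate the adjusted p was 1.0, and with replicate number as a block it was 0.055. Without mutant replicate 1 the difference was 22.5 points (adjusted p = 0.0076). In E14.5 livers the same tile had 37.3% and 34.97% against 52.1% and 47.1%, 13.4 points. In E10.5 embryos it had 47.3% and 54.7% against 61.1% and 62.3%, 10.7 points (adjusted p = 0.31). All mutants lay above all wild types of their own tissue.

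In E10.5 embryos 1 more tile passed the adjusted p with a difference under 15 points, beside 0.726% of the genome's tiles at any size. The tile at chr9:63775001-63776000 (32 CpGs) lies 47.2 kb from the centre of the stretch on the side of Smad6 and was 10.3 points higher in mutant E10.5 embryos (edgeR adjusted p = 3.1e-05). The genotype difference in E18.5 livers was also tested against that in E10.5 embryos, as an interaction. Of the 251 interval tiles 0 were called and 12 had an unadjusted p under 0.05 (4.78%), beside 2 called tiles (0.000344%) and 4.199% of tiles at that unadjusted p in the genome. In simulated data this test recovered 35.5% of 30-point differences between the tissues, against 92.5% and 94.5% for a genotype difference within E10.5 and within E14.5 tissue (E18.5 was not simulated alone), so a difference between E10.5 and E18.5 was not detected, and its absence is not shown. At the tile in the stretch the interaction was −5.43 points (edgeR unadjusted p = 0.33).

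**Figure D3:**
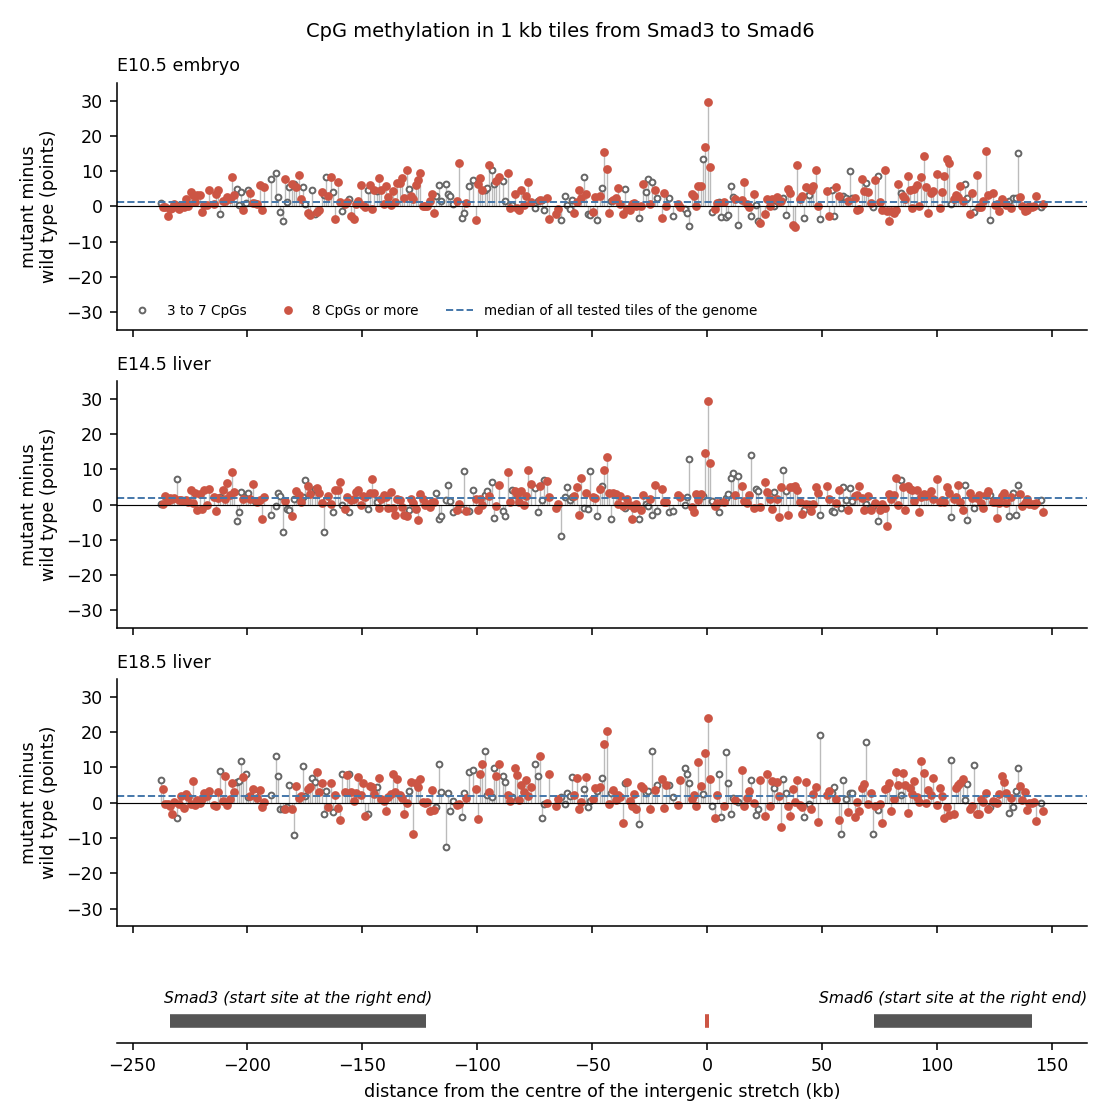
Mutant minus wild-type methylation in points (vertical axis) in 1 kb tiles against distance from the centre of the stretch in kb, 1 panel per tissue; filled points are tiles with 8 CpGs or more, open points those with 3 to 7, and the dashed line is the median of all tested tiles of the genome. The tile in the stretch stands highest in every panel, at 29.6, 29.5 and 24.1 points, and the bodies of Smad3 and Smad6 hold no called tile in E10.5 embryos or E18.5 livers.

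Leaving out the tile in the stretch, the other 250 tiles had a median difference of 2.05, 1.64 and 1.99 points in E10.5, E14.5 and E18.5 tissue, beside 1.13, 1.74 and 2.01 in the genome. In E10.5 embryos the interval median thus lay above that of the genome, also with any 1 library left out (1.75 to 2.56 against 1.03 to 1.32 over the 251 tiles). With all libraries, the medians in both livers differed by at most 0.1 points from those of the genome. The E14.5 median over the 251 tiles was 0.385 without wild-type replicate 1 and 2.74 without wild-type replicate 2, beside 0.518 and 2.97 in the genome. Without mutant replicate 1 the E18.5 median over the 251 tiles was −0.23 points, beside 0.334 in the genome (chosen after seeing the data). The 79 tested tiles of the Smad3 body had medians of 2.17, 1.60 and 2.05 points, and the 57 of the Smad6 body 2.12, 1.66 and 1.53. None of these was called in E10.5 embryos or E18.5 livers.

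The start-site windows of the 8 genes held 76 to 213 CpGs. In 5 of them (Smad1, Smad2, Smad3, Smad6 and Smad7) each of the 12 libraries had under 0.4% methylated reads. Smad4 had 0.394% to 1.36%, Smad5 1.74% to 7.12% and Smad9 4.04% to 10.1%, and these were the only windows above 1% in any library. Of the 8 windows 0 were called in each tissue, beside 0.349%, 0% and 0.217% of 18890 protein-coding genes in E10.5, E14.5 and E18.5 tissue. At an unadjusted p under 0.05 (edgeR) the numbers were 0, 1 and 0, beside 12.1%, 11.8% and 8.62% of those genes. The 1 was Smad5, which had 4.38% and 5.05% in wild-type and 7.12% and 6.05% in mutant E14.5 livers (1.87 points, adjusted p = 0.40). Both mutants were above both wild types at Smad5 in every tissue, by 1.06 points in E10.5 embryos and 0.872 points in E18.5 livers. At the start site used by most Smad2 transcripts, the window was 1.97, 4.09 and 3.71 points higher in mutant E10.5, E14.5 and E18.5 tissue. None of these passed (edgeR adjusted p 0.51 to 0.78).

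Gene bodies were mostly methylated, with Smad6 and Smad7 lowest. In wild-type E10.5 embryos the means ran from 35.4% at Smad7 and 55.2% at Smad6 to 89.5% at Smad4. In wild-type E14.5 livers they ran from 37.6% and 54.4% to 74.0% at Smad4. Averaged over the whole body, the inhibitory pair thus lay near its embryo level in liver, though tiles within the Smad6 body moved both ways. The bodies of the other 6 genes had 74.0% to 89.5% in embryos and 58.7% to 74.0% in E14.5 livers.

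By the call rule 0 of the 8 gene bodies were called in each tissue, beside 0.195%, 0.0868% and 0.136% of 18424 genes. At an adjusted p under 0.05 and any size, 5 were higher in mutant E10.5 embryos (Smad2, Smad3, Smad6, Smad7 and Smad9), beside 13.5% of all genes, and 0 in E14.5 or E18.5 livers, beside 1.38% and 0.369%. The median over the 8 genes was 2.58 points in E10.5 embryos against 1.08 for all genes, 1.54 against 1.59 in E14.5 livers and 1.97 against 1.90 in E18.5 livers. The median moved with single libraries, as did that of all genes. Without E18.5 mutant replicate 1 it was −0.0021 points, with 4 of 8 bodies higher (−2.82 to 1.17 points), against 0.144 for all genes. Without E14.5 wild-type replicate 1 it was 0.653 against 0.445, and without wild-type replicate 2 it was 2.95 against 2.73. Left out one at a time, a pair of libraries also changed the number passing in liver. Without E14.5 wild-type replicate 2, 5 bodies passed (Smad1, Smad2, Smad3, Smad7 and Smad9), beside 41.8% of all genes, and without E18.5 mutant replicate 2, 5 passed (Smad1, Smad2, Smad3, Smad5 and Smad9), beside 61.2%. The other 6 such fits of liver gave 0. The genome-wide level was also higher in mutant E10.5 embryos, and its part in these differences was not tested.

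Smad7, the inhibitor that recruits ubiquitin ligases to receptors, had the largest body difference. It had 33.9% and 36.9% in wild-type and 40.2% and 41.8% in mutant E10.5 embryos, 5.66 points (edgeR adjusted p = 0.0096). Smad6, an inhibitor mainly of BMP signals, had 54.5% and 55.9% against 59.1% and 60.3%, 4.47 points (adjusted p = 0.0086). Smad3 had 78.1% and 79.4% against 81.6% and 82.4%, 3.24 points (adjusted p = 0.0050). At each of these the mutants lay above both wild types. The Smad9 body was 3.15 points higher (adjusted p = 0.0085) and that of Smad2 1.77 points (adjusted p = 0.047), and the other 3 genes were 0.920 to 2.02 points higher without passing. The calls rested on the definition of the body: with the whole gene, start-site window included, all 5 adjusted p-values were above the threshold, from 0.063 (Smad3) to 0.52 (Smad2). The differences over whole genes were 2.63 points for Smad2, 4.37 for Smad3, 3.54 for Smad6, 5.83 for Smad7 and 4.23 for Smad9. At Smad2, Smad3, Smad7 and Smad9 they exceed both the body difference and that of the start-site window. The latter was at most 0.0768 points at Smad2, Smad3 and Smad7 and 1.38 points at Smad9. Reads were pooled over CpGs, so whole-gene values also depend on the share of reads in each part, which was not compared. Of the 5, Smad3 passed with each library left out, while Smad2 was lost without any one of them (0.087 to 0.17). Smad7 (0.061) and Smad9 (0.056) were lost without wild-type replicate 1, and Smad6 (0.059) without mutant replicate 2. Smad1 passed without wild-type replicate 2 (0.014).

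**Figure D4:**
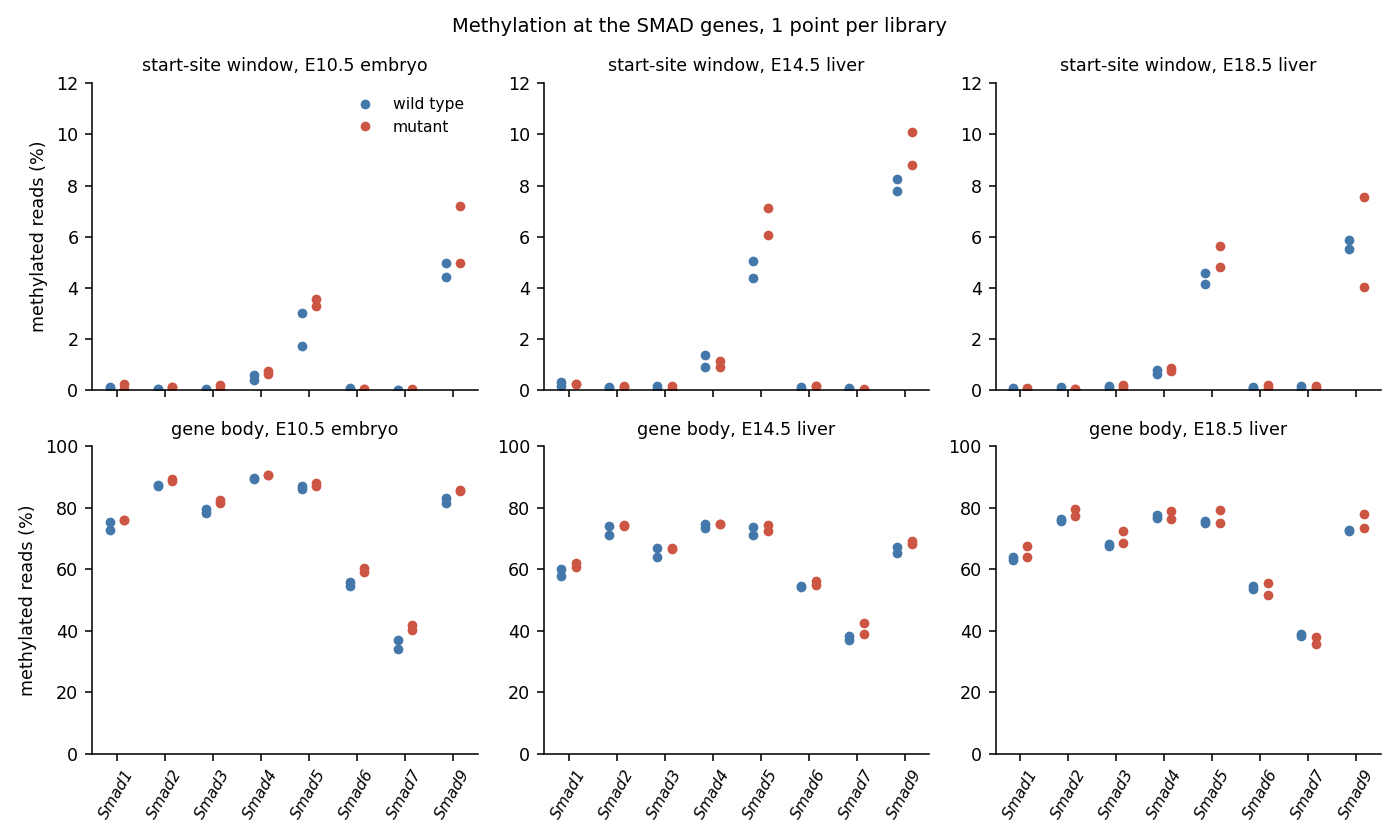
Percent of methylated reads per library (vertical axis) in the start-site window (upper row, axis to 12%) and body (lower row, axis to 100%) of the 8 SMAD genes in each tissue, 1 point per library. Start-site windows were near 0% apart from Smad4, Smad5 and Smad9, and bodies of Smad6 and Smad7 were the lowest.

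Wild-type libraries alone were compared between tissues, without the mutants. The wild-type E14.5 livers had a part in choosing the interval, so the calls and p-values of these tissue contrasts are a description there. From E10.5 embryo to E14.5 liver 132 of the 251 interval tiles were called, 120 lower and 12 higher in liver, beside 53.3% of genome tiles lower and 1.31% higher (edgeR, same rule). The difference of the median tile was −14.54 points, beside −15.8 in the genome. Of the 12 higher tiles 10 lay in the body of Smad6, 17.5% of its 57 tested tiles, and 2 in that of Smad3, 2.3 and 3.3 kb downstream of its start. None lay between the genes. The Smad6 body held more falls than rises, with 19 tiles called lower and a median of −8.84 points over its tested tiles. Lower tiles numbered 37 of 79 in the Smad3 body and 63 of 108 between the genes.

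The largest rise was at chr9:63828001-63829000 in Smad6, 41.4 kb downstream of its start, from 12.5% ± 1.05 in embryos to 58.6% ± 1.13 in E14.5 livers (SD, n = 2; edgeR adjusted p = 2.9e-18), with 63.2% in E18.5 livers. Next was chr9:63807001-63808000, from 19.8% ± 0.999 to 56.7% ± 3.35 (adjusted p = 1.8e-14). The largest fall was at chr9:63574001-63575000 in Smad3, from 60.4% and 56.1% to 12.5% and 10.6% (adjusted p = 3.0e-19). The tile in the stretch had 30.7% in embryos and 23.8% in E14.5 livers. From E14.5 to E18.5 liver 3 tiles were called, 2 higher between the genes and 1 lower in Smad6, beside 1.42% of the genome (1.35% higher, 0.0609% lower).

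RNA was measured in E14.5 livers only. All 8 SMAD genes passed the filter on low counts, and none passed the test between genotypes. By edgeR's quasi-likelihood test 0 of 8 had an adjusted p under 0.05, beside 1.39% of the 14183 genes tested. That share was 197 genes, 99 higher and 98 lower. DESeq2 also gave 0 calls among the 8. At an unadjusted p under 0.05 (edgeR) there were 0 of 8, beside 2071 of the 14183 genes. The median log2 fold change of the 8 was 0.08, beside 0.00 for all genes. Of the 8, 6 were higher in mutants, beside 49.4% of all genes. In whole liver, fewer cells of a type and less RNA per cell cannot be told apart.

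Rlf, the mutated gene, had 70.0, 72.3 and 68.9 CPM (counts scaled to a common library total) in wild-type and 76.3, 79.8 and 67.6 in mutant livers, with overlapping groups.

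Smad3, which transmits activin and TGF-β signals, came nearest to a difference. It had 29.98, 34.1 and 35 CPM in wild-type and 37.6, 35.2 and 38.8 CPM in mutant livers. Each mutant lay above each wild type, though the nearest pair was almost level and the share of all genes so separated was not counted. The log2 fold change was 0.17 (SE 0.080, n = 3 per group, edgeR unadjusted p = 0.055, adjusted p = 0.35), and 0.11 to 0.21 with 1 liver left out. The interval at 2 SE was 0.01 to 0.33. It leaves out 0 although the unadjusted p was above 0.05, so it is not read as a difference. Smad6, the other gene at the interval, had 13.4, 19.7 and 16.8 CPM in wild-type and 16.1, 17.0 and 18.6 CPM in mutant livers, with groups that overlapped (log2 fold change 0.05, SE 0.13, adjusted p = 0.91, interval −0.22 to 0.31). Its sign turned without wild-type replicate 1 (−0.08) or mutant replicate 3 (−0.01).

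The other members also overlapped between genotypes. Smad2 had 44.8 to 53.2 CPM over the 6 livers, with a log2 fold change of −0.08. The common partner Smad4 had 36.7 to 44.4 CPM (0.12) and Smad5 51.5 to 56.1 CPM (0.05). Smad1 had 12.7 to 15.2 CPM (−0.03, with the sign turning without wild-type replicate 1 or mutant replicates 1 or 2). Smad7 had 5.80 to 8.23 CPM (0.14). Smad9 was barely detected, at 0.842 to 1.68 CPM or 12 to 24 counts, and its log2 fold change of 0.34 had an SE of 0.32.

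Levels between genes were compared per kb of exon. The order of means over the 6 livers was Smad2 (14.04 CPM per kb), Smad4 (11.3), Smad5 (7.29), Smad3 (6.34), Smad6 (5.40), Smad1 (2.38), Smad7 (1.66) and Smad9 (0.228). Ranges over livers overlapped between Smad5 and Smad3 and between Smad3 and Smad6, and not between other neighbours in that order. Partners of both branches were thus present, and the BMP-branch Smad9 lay lowest.

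**Figure D5:**
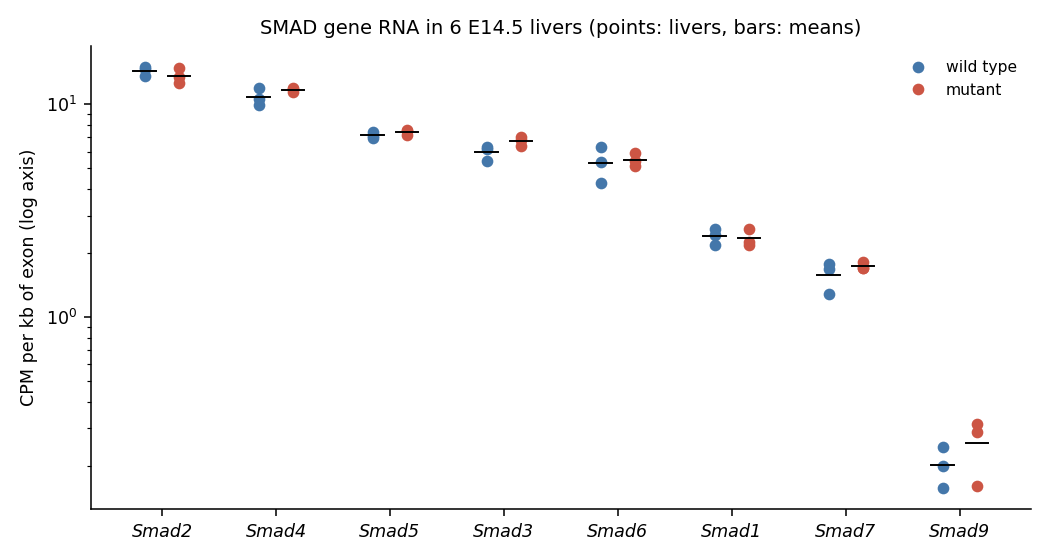
CPM per kb of exon on a log axis for the 8 SMAD genes in 6 E14.5 livers, ordered by mean; points are livers, bars group means of 3. The genotypes overlap at every gene but Smad3, where mutants (6.35 to 6.99) lie above wild types (5.41 to 6.32).

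Of 28 annotated genes within 500 kb of the interval 14 were tested and 0 passed (lowest adjusted p 0.30, edgeR), beside 1.39% of all genes. The interval itself overlaps no annotated gene other than Smad3 and Smad6. Across the 6 livers, the genes whose log2 CPM followed Smad3 most closely were Klk8 (Pearson r = 0.996), Tead1 (0.994) and Zfhx4 (0.994). Those most like Smad6 were Fgd3 (0.995), Ppp2r1a (0.988) and Tbc1d13 (0.986). They are the top of 14182 genes over 6 livers and are a description only. Among members, Smad3 was most like Smad5 (0.910) and Smad6 most like Smad4 (0.832).

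The wider pathway was counted from a list of 71 genes, of which 63 were tested. By edgeR 1 (1.59%) had an adjusted p under 0.05, beside 1.39% of all genes, a share too near that background to be a result about the pathway. It was Inhbc, which encodes an activin subunit made by liver, and it was lower: 6.71, 6.21 and 5.61 CPM in wild-type and 3.34, 4.04 and 3.86 CPM in mutant livers (log2 fold change −0.72, SE 0.16, adjusted p = 0.049). All mutants lay below all wild types, yet the call was lost with DESeq2 (adjusted p = 0.10), with sex as a covariate (0.052) and without any 1 of the 6 livers (0.078 to 0.17). The median over the 63 was 0.10, with 43 higher (68.3%) beside 49.4% of all genes, and 16 at an unadjusted p under 0.05, beside 2071 of 14183.

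By role, ligands numbered 18 tested with 1 lower and 0 higher, at a median log2 fold change of 0.01. The most abundant were Tgfb1, with 85.0 to 110.7 CPM, and the liver-made BMP ligand Gdf2, with 49.97 to 65.7 CPM, and neither passed. The receptors and co-receptors (12 tested, median 0.12) included the co-receptor Eng (−0.20, adjusted p = 0.31) and the type II receptor Tgfbr2 (0.15, adjusted p = 0.32), and none passed. Nor did any of 10 extracellular inhibitors and carriers (median 0.14), led by Dcn and Fstl1, of 13 intracellular regulators (0.13), led by the deubiquitinase Usp15 and the acetyltransferase Ep300, or of 10 target genes (0.04), led by Id2 and Junb. With replicate number as a block 2 genes (3.17%) passed, Inhbc and Ltbp4, a carrier of latent TGF-β (edgeR adjusted p = 0.047), beside 3.24% of all genes with the same block.

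Markers of some other cell types differed between the same livers, beside 1.39% of all genes called. Of 6 megakaryocyte markers 1 rose (Pf4; 2 with the replicate block, Itga2b being the other, at an adjusted p of 0.032, beside 3.24% of all genes) and their sum was 491 to 515 CPM in wild-type against 580 to 650 CPM in mutant livers. Of 6 neutrophil markers 3 fell (Elane, Ngp and S100a8; 610 to 866 against 545 to 644 CPM). The others were not called: Mpo was higher in mutants (log2 fold change 0.13), and Prtn3 (−0.02) and Ctsg (−0.03) were nearly level. Of 6 macrophage markers 1 fell (Cd5l; 491 to 533 against 469 to 494 CPM). The macrophage sum was lower through Cd5l: 4 of the 6 markers were higher in mutants, and the other 5 summed to 397 to 403 CPM in wild-type against 431 to 444 CPM in mutant livers. Of 8 hepatoblast markers 0 were called, and their sum, most of it Alb and Afp, was 55692 to 66222 CPM in wild-type and 68162 to 79058 CPM in mutant livers. Erythroid markers (28241 to 52706 against 35468 to 38376 CPM), endothelial markers (268 to 295 against 297 to 347 CPM) and mesenchymal markers (598 to 763 against 648 to 939 CPM) had no called gene. Their part in the RNA values of the SMAD and pathway genes was not tested.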

How the data were processed

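WGBS reads were trimmed by the authors and aligned with Bismark and Bowtie2 to mm9 carrying FVB substitutions, duplicates were removed and both strands of a CpG were merged. RNA-seq reads (poly(A), single-end) were aligned with TopHat and counted per gene with htseq-count without strand. The authors deposited, per CpG, counts of reads with an unconverted and a converted cytosine and, per gene, read counts. The percent of methylated reads deposited by the authors was rounded, so it was recomputed from the counts.

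Positions were read as starting from 0 in the tables, and 97.1% then fell on a reference CpG of chromosome 9. The 13032403 CpGs that had 6 reads or more in each of the 12 libraries were summed per feature, and features needed 8 CpGs. Methylated and unmethylated counts (edgeR 4.0.16) and gene counts (TMM, filterByExpr) were tested by quasi-likelihood fits, and p-values were adjusted over all features by the Benjamini-Hochberg method. A feature was called at an adjusted p under 0.05 and, for methylation, over 15 points. SEs of RNA log2 fold changes came from the fit. Single values were compared by exact permutation tests. The study describes the E14.5 WGBS livers as littermates, the litters of the other samples are not given in the sources used here, and p-values measure the spread between these samples only. Same-numbered wild-type and mutant RNA samples had deviations from their group means that correlated at 0.129, 0.251 and 0.438. Differently numbered samples were not compared, no label gives a pairing, and replicate 3 was the only female in each RNA group. For WGBS, differences between replicates correlated between genotypes at 0.0504 or less. CPM per kb used exon lengths of NCBIM37. Lambda DNA left 0.0412% to 0.0775% of cytosines unconverted, which bounds levels near 0 and can hide differences at start sites.

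The members, the interval and the gene lists were chosen with earlier results of these data known. The named genes were the 8 members and Rlf, pathway genes with an adjusted p under 0.05, the most abundant pair of each role, and the 3 genes most like Smad3 and Smad6. Named markers came from a list for each cell type, and Ltbp4 and Itga2b were named for passing with the replicate block. On simulated data with the same depths the tests gave the right sign and size, and recovered 99.0% of 200 changed genes (1 log2 unit, 14183 genes) and of 200 changed tiles (30 points, 20000 tiles) 92.5% for E10.5 and 94.5% for E14.5 genotype differences, but 35.5% for the interaction. The spread was fixed, and changes were placed only in well-counted genes and in tiles of middle methylation. Recovery at few counts, as for Smad9, or near 0% methylation was thus not simulated. Alternatives were read minimums of 1 and 10, 4 CpGs per tile, 20 points, other feature definitions, DESeq2 1.42.0, RLE scaling, no filter, sex as a covariate, thinned E14.5 counts, a replicate block and each library left out. The 4 H3K4me1 samples were not analysed here.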

Additional observations from a re-analysis of the deposited data

Results flagged for a closer look

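The Smad7 gene body was flagged because its genotype difference ran in opposite directions between tissues, with no overlap of the groups in any. Mutants were above wild types by 5.66 points in E10.5 embryos (33.9% and 36.9% against 40.2% and 41.8%) and by 2.98 points in E14.5 livers (37.0% and 38.3% against 42.4% and 38.8%). In E18.5 livers they were below, with 38.9% and 38.3% in wild type against 38.0% and 35.8%, a difference of −1.70 points. Of the 8 bodies, both mutants lay above both wild types at 7, 5 and 4 in E10.5, E14.5 and E18.5 tissue. Smad7 in E18.5 livers was the only one with both below. The share of all gene bodies so separated, in either direction, was not counted, so nothing is read from these counts. The median body of all genes was itself 1.08, 1.59 and 1.90 points higher in mutants in the 3 tissues. The E18.5 difference had an adjusted p of 0.83 (edgeR) and kept its sign under each of the 8 alternatives run for it, but ran from −2.82 points without mutant replicate 1 to −0.59 without mutant replicate 2, and was −0.91 over the whole gene. The E14.5 difference fell to 1.19 points without mutant replicate 1. The difference between tissues was not tested for gene bodies.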

How the results depend on the processing

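With 1 library left out, the genotype difference of the stretch ran from 22.9 to 36.8 points at E10.5, from 27.2 to 30.3 at E14.5 and from 19.1 to 28.04 at E18.5. The calls of 0 for the SMAD genes, start-site windows and gene bodies held under every alternative run. Interval tiles called in E10.5 embryos numbered 1 to 4 with 1 library left out (0.159% to 0.609% of all tiles) and 3 with a replicate block (0.481%). In E14.5 livers they numbered 1 to 2 (0.138% to 0.399%), and in E18.5 livers 0 to 6 (0.0234% to 0.996%, the 6 without mutant replicate 2), with 1 at 4 CpGs per tile (0.0629%) and 1 with the replicate block (0.128%). The block moved no other count of tiles by over 1.5 times, and differences between WGBS replicates correlated little between genotypes (0.0456, 0.0504 and −0.0136). From E10.5 embryo to E14.5 liver 59 tiles were over 20 points instead of 132 over 15, and from E14.5 to E18.5 liver 0 were over 20 points and 1 was called at 10 reads. The interaction was not run with libraries left out. Pathway genes called numbered 0 with DESeq2, 3 with no filter, 2 with the replicate block, 0 with sex as a covariate and 0 to 0 with 1 liver left out. Genes called in all numbered 197, but 532 with no filter, 460 with the replicate block, 256 with DESeq2 and 66 to 224 with 1 liver left out. With 1 liver left out the log2 fold change of Smad1 ran from −0.11 to 0.030 and that of Smad6 from −0.084 to 0.18. That of Smad1 turned positive without wild-type replicate 1 (0.030), mutant replicate 1 (0.00016) or mutant replicate 2 (0.022), and that of Smad6 negative without wild-type replicate 1 (−0.084) or mutant replicate 3 (−0.013). At the start site used by most of its transcripts, the Smad2 window was 1.97, 4.09 and 3.71 points higher in mutants in E10.5, E14.5 and E18.5 tissue, against at most 0.0683 at its annotated 5′ end. None of the 3 passed (edgeR adjusted p = 0.71, 0.51 and 0.78). Where no cause follows from fewer libraries, CpGs or genes, the cause was not tested. Depth limits single CpGs most, at 6 reads or more per library.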
